A study of Caenorhabditis elegans with 16 samples.

Results

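The genome of *C. elegans* was divided by its GATC sites into 269057 fragments. Of these, 341 (0.127%) had a high average RPB-6 score in seam cells and a low one in the hypodermis, at both larval stages. They were chosen by their measured values, as the fragments whose score was at least 1 in seam cells and at most 0.25 in the hypodermis, each at both stages. The score is log2(*dam:rpb-6*/*dam:NLS-GFP*), so a score of 1 means that a fragment was recovered at 2 times the level of the control. The same 4 group scores cannot also test the difference between the cell types, and those values are given here as a description.

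The scores came from Targeted DamID (TaDa) on whole-animal DNA, in 16 samples that covered 2 cell types, 2 stages and 2 fusions with 2 biological replicates each. In seam cells the fusions were expressed from *srf-3i1* (strain MBA698 for *dam:rpb-6* and MBA692 for *dam:NLS-GFP*), an intronic enhancer of *srf-3*, and in the hypodermis from *dpy-7syn1* (MBA688 and MBA693), a *dpy-7* promoter with altered GATA sites. All strains carried *unc-119(ed3)* III and 1 copy of their transgene, were fed on bacteria without Dam and Dcm methylases at 20 °C, and were collected after 24 hours at L2 or after 48 hours at L4, with each replicate population split between the stages. The files hold ratios and no read counts, so the depth behind a score is unknown and its counting error could not be computed. Because whole animals were lysed, few cells with a strong signal and many cells with a weak one cannot be told apart.

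TaDa reports where a protein sits by the adenine methylation that a fused Dam methylase leaves at nearby GATC sites, and RPB-6 is a subunit shared by the RNA polymerases. Only cells in which the promoter is active express the fusion, so the methylated DNA of those cells is read out without sorting them. Seam cells are lateral epidermal cells that divide in a stem cell-like manner during larval life, and most of their anterior daughters fuse with the hypodermal syncytium, which secretes most of the cuticle. The fate of these cells depends on GATA factors, among them EGL-18 and its paralogue ELT-6, and on ELT-1.

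Several members show what such fragments are made of, since they come from the seam cell gene cluster on chromosome IV, from the genes for 2 GATA factors, from *ham-1*, and from intergenic DNA beside *wrt-2*, *cdh-3* and *algn-12*. They are printed 5′ to 3′ on the plus strand of the RefSeq WBcel235 genome with their whole GATC sites. Capitals mark the GATC sites at both ends and the GATA words AGATAG and TGATAA on either strand.
grd-3 exon: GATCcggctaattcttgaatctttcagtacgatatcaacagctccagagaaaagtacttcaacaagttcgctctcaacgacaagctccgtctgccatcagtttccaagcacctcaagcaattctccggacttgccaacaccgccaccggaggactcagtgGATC
grd-3 to grd-10 spacer, left: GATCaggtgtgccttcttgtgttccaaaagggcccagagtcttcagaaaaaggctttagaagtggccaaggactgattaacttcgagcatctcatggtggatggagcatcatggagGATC
grd-3 to grd-10 spacer, right: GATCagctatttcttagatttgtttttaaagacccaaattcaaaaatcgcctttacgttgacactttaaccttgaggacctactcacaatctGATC
ham-1 exon: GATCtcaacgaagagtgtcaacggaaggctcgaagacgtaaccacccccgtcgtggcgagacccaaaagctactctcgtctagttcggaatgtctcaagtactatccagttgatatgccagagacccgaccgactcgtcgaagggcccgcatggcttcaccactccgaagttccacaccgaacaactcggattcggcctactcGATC
elt-1 intron: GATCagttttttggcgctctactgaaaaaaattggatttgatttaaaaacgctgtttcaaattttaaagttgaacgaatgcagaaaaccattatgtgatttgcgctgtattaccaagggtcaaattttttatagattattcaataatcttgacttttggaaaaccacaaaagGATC
egl-18 intron: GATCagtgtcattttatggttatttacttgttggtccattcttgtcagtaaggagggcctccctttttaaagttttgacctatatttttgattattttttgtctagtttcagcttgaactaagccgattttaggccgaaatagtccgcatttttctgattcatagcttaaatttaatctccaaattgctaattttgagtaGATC
upstream of wrt-2: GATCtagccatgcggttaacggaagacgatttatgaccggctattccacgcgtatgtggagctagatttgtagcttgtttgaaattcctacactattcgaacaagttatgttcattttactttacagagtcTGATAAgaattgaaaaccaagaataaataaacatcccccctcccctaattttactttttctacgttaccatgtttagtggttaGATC
upstream of cdh-3: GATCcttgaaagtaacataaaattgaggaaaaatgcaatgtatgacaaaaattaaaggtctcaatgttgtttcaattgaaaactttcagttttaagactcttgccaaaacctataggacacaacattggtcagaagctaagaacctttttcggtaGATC
downstream of algn-12: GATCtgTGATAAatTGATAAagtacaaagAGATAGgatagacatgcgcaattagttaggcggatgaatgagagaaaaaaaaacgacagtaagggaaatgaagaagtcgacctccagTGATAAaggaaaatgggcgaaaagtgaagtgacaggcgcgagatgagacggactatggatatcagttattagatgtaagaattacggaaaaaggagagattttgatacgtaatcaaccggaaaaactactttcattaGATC

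The *grd-3* exon fragment, which starts in the intron before it, lies at chromosome IV 3440120-3440283, and the pieces of the spacer between *grd-3* and *grd-10* at 3440490-3440609 and 3440920-3441015. The *ham-1* exon is at chromosome IV 12544917-12545123, the *elt-1* intron at 9618659-9618834 and the *egl-18* intron at 1912908-1913111. The intergenic fragments are at chromosome X 3094726-3094943, 379 bp upstream of *wrt-2*, at chromosome III 7754715-7754873, 269 bp upstream of *cdh-3*, and at chromosome V 8040912-8041168, 1237 bp downstream of *algn-12*. Only the last of them held AGATAG, with 1 copy beside 3 of TGATAA, and the *wrt-2* fragment held 1 TGATAA.

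The members had median group scores of 1.497 at L2 and 1.69 at L4 in seam cells, and of -0.16 and -0.17 in the hypodermis, against medians of 0 to -0.01 over all fragments. Their seam scores reached 4.90 at L2 and 5.19 at L4. In the hypodermis 182 members were below 0 at both stages, where 37.5% of all fragments were. At both stages 51 members lay within 0.1 of 0, and 34 were at -0.5 or lower. The selection kept out higher hypodermis scores, so no depletion is read from these counts. A score near 0 says that both fusions were recovered alike, and whether that was at a high or a low level is not recorded in a ratio. Of 8023 fragments with a score of at least 1 in seam cells at both stages, 4.25% met the limit on the hypodermis. The member nearest to the seam limit, in *emb-9*, had 1.0002 at L4, and the nearest fragment outside it, in *hil-2*, had 0.998963 at L2. On the hypodermis limit the nearest member had 0.248851 and the nearest fragment outside, in *M01E5.4*, had 0.251208.

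The replicates did not support every member alike. A replicate score sets 1 *dam:rpb-6* replicate against 1 control, crossed in seam cells at L4, where the profile of replicate 1 against control 1 ran opposite to that of the same replicate against control 2 (Pearson's r = -0.35 across fragments, which are not independent replicates) and was left out of the group score. All 4 seam replicate scores reached 1 in 77 of 341 members (22.6%), and 52 also had all 4 hypodermis replicate scores at or under 0.25. At the other end, 150 members had a seam replicate score at or under 0.25. The median gap between replicates over the members was 1.93 at L2 and 1.07 at L4 in seam cells, against 0.53 and 0.54 in the hypodermis. All 4 seam replicate scores exceeded all 4 hypodermis ones in 194 members and in 1.72% of all fragments, a comparison that the selection fixed in large part. The same limit applies wherever seam and hypodermis replicates of a gene or run are compared below.

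**Figure D1:**
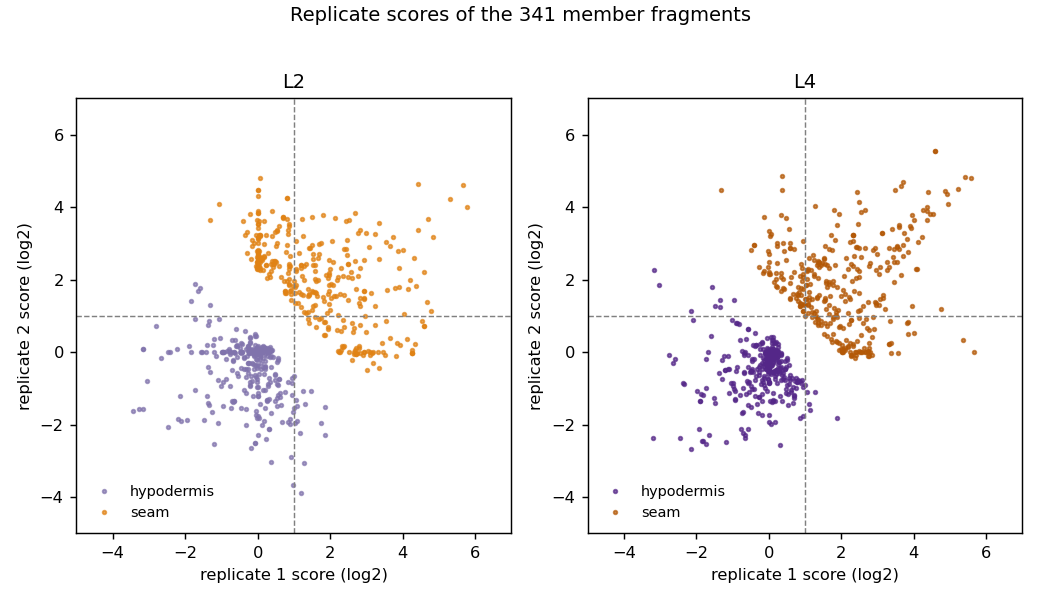
Score of replicate 2 (vertical axis, log2) against replicate 1 (horizontal axis, log2) for the 341 members at L2 and L4, with seam cells in orange, hypodermis in purple and dashed lines at 1. Many seam points lie beside an axis, where 1 replicate is near 0, and 77 members have all 4 seam values at or above 1.

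Using replicate 2 of each *dam:rpb-6* group alone gave 997 members, of which 184 were among the 341, and using replicate 1 alone gave 386, of which 132 were. In both, 58 members stayed and 83 stayed in neither. For these 83, membership rests on the average of both replicates. The remaining members met the rule with only 1 of the replicates, and values are given per replicate below.

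Members were often neighbours. They formed 212 stretches, of which 137 were single fragments and 75 were runs of at least 2 adjacent members, holding 204 members (59.8%). There were 47 runs of 2, 18 of 3, 5 of 4, and 1 each of 5, 6, 7, 8 and 10, and the median run spanned 434 bp. Adjacent short fragments can be covered by the same reads, so members of a run are not independent. Of the 419 fragments directly beside a stretch, 320 missed the rule through the seam scores alone, 41 through the hypodermis alone and 58 through both, and 84.2% of them were above 0 in seam cells at both stages, against 22.5% of all fragments.

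**Figure D2:**
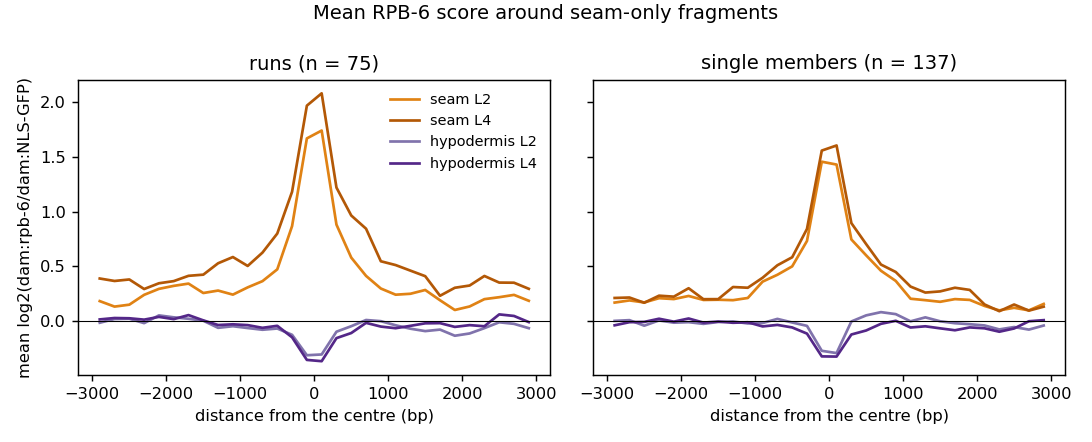
Mean group score (vertical axis, log2) by distance from the centre of 75 runs (left) and 137 single members (right), in bins of 200 bp. In runs the seam means reached 1.74 at L2 and 2.08 at L4 just beside the centre and were 0.30 and 0.55 at 900 bp downstream along the chromosome, while the hypodermis means lay between -0.37 and 0.01 over the same distance.

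The longest run held 10 members over *grd-13* and *grd-3* (chromosome IV 3438543-3440290), and the next along the chromosome held 6 members over *grd-10* and the spacer before it (3440492-3441869). These genes encode groundhog-like proteins of the hedgehog-related family of nematodes and were among the markers of seam cells looked for. In the *grd-13* and *grd-3* run the mean score was 2.84 and 2.46 in the L2 seam replicates and 3.82 and 2.91 at L4. In the hypodermis its 4 replicate means lay between -0.02 and 0.02. The *grd-10* run had 2.87 and 3.08 in seam cells at L2 and 4.06 and 3.56 at L4. Its hypodermis replicates had -0.85 and -0.80 at L2 and -0.01 and -0.14 at L4, so no replicate of one cell type came near the other in either run. Each member of both runs had a pairwise score of exactly 0 in at least 1 profile, and without such fragments, an alternative chosen after seeing the data, *grd-13*, *grd-3* and *grd-10* held 0 members.

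Within the cluster, all 3 fragments of *grd-10*, 6 of 8 of *grd-3* and 4 of 8 of *grd-13* were members, and members held 79.6% of the bases of *grd-3* and 80.7% of those of *grd-13*. Gene occupancy, the mean score over a gene weighted by overlapped length, was 2.70 at L2 and 3.404 at L4 for *grd-10* in seam cells, 2.41 and 3.50 for *grd-3*, and 2.28 and 3.46 for *grd-13*. The highest *grd-3* member, at 3439811-3440121, had 4.44 and 3.37 in the L2 seam replicates and 5.59 and 4.80 at L4. The spacer was as high as the genes beside it: the member at 3440608-3440921, 134 bp upstream of *grd-10*, had 3.36 and 3.58 at L2 and 4.91 and 4.36 at L4, and its group scores, 3.24 and 4.63, were the highest of any intergenic member at each stage. In the hypodermis that fragment had 0.00 and -1.77 at L2 and -0.02 and -0.49 at L4.

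**Figure D3:**
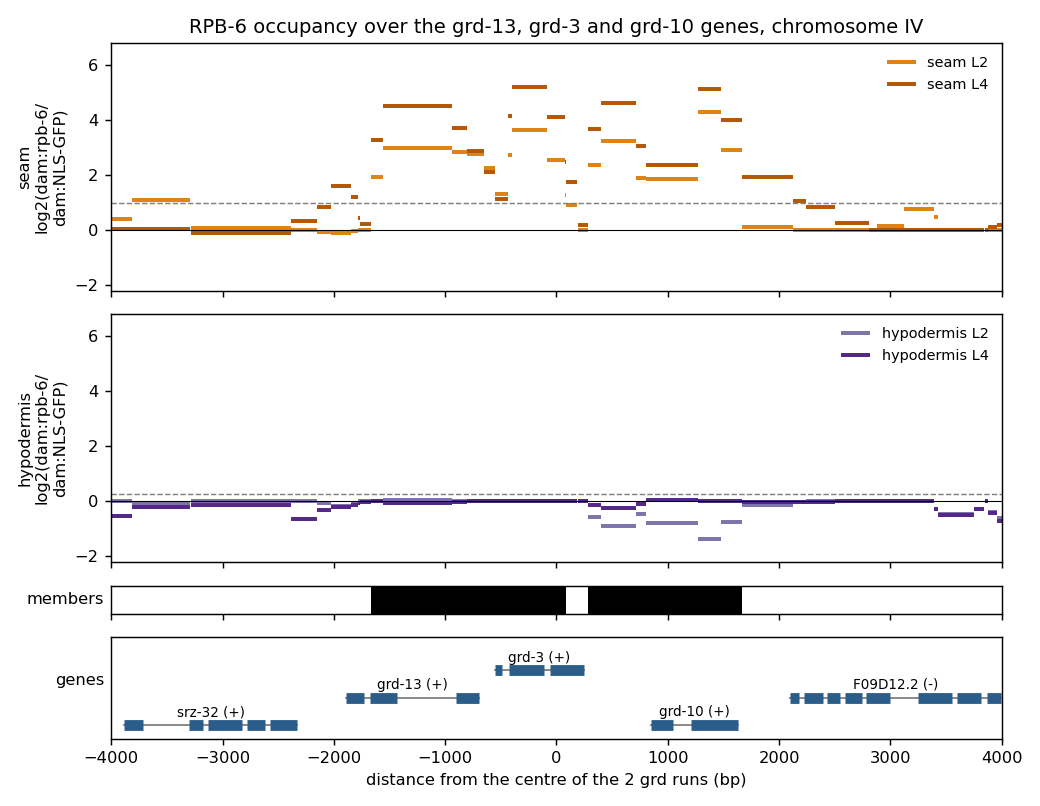
Group scores of each GATC fragment (vertical axes, log2) by distance from the centre of the 2 *grd* runs (horizontal axis, bp) in seam cells (orange) and hypodermis (purple), with member fragments in black and gene models below. The seam scores stand above 1 over most of the 3 *grd* genes, are below it at L2 over the start of *grd-13* and at the end of *grd-3*, and the hypodermis scores stay at or below the dashed limit of 0.25.

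Among the GATA factor genes, *elt-1*, which specifies epidermal fate, had 7 members among its 21 fragments, spread from one end of the gene to the other. Their mean score was 0.93 and 3.05 in the L2 seam replicates and 3.48 and 2.54 at L4, against -0.03 and 0.05, and -0.28 and -0.27, in the hypodermis. The 4 seam means were thus all above the hypodermis ones, with L2 replicate 1 the lowest. In all, 12 *elt-1* fragments had at least 1 in seam cells at both stages and 5 of these were over the hypodermis limit, among them the fragment with the highest seam scores, 4.63 and 5.83, which had 0.60 in the hypodermis at L2 and -0.01 at L4. The occupancy of the whole gene was 1.42 and 2.26 in seam cells and 0.13 and -0.10 in the hypodermis.

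**Figure D4:**
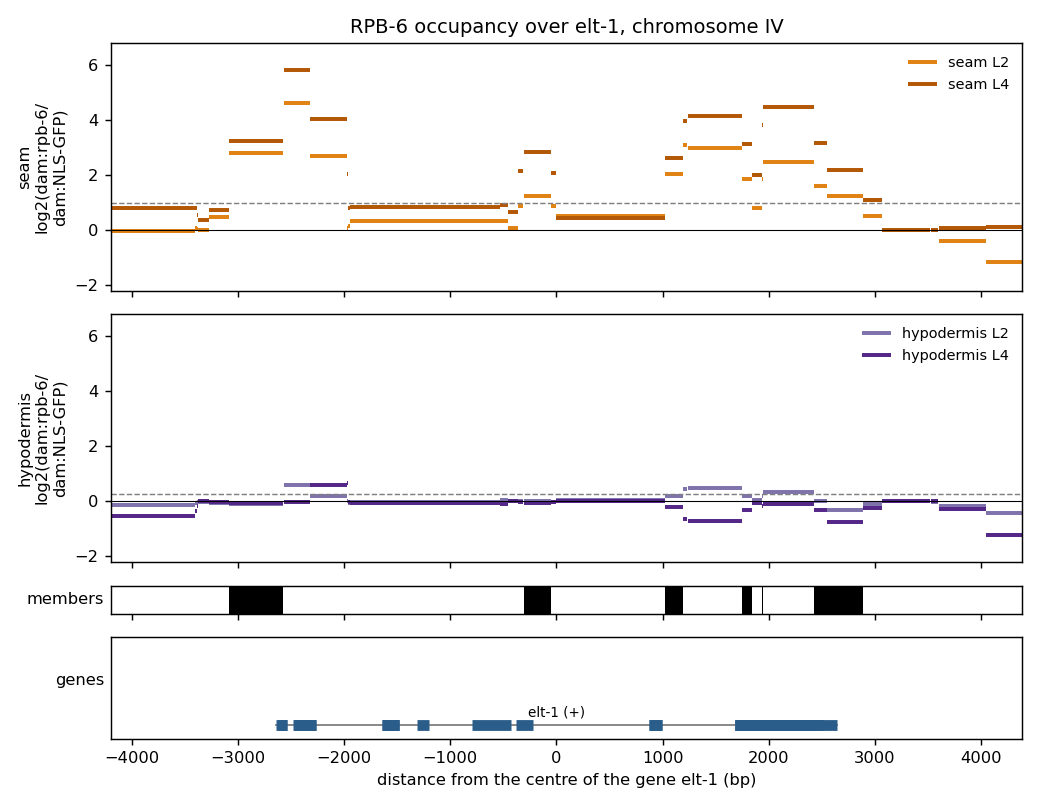
Group scores of each GATC fragment (vertical axes, log2) by distance from the centre of *elt-1* (horizontal axis, bp) in seam cells (orange) and hypodermis (purple), with members in black and exons below. Seam scores are high over both ends and over a block in the middle of the gene, and several high fragments are no members because a hypodermis score lies above 0.25.

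The neighbouring paralogues *egl-18* and *elt-6*, GATA factor genes that maintain seam cell fate, each had 2 members. The *egl-18* members, both in introns, had 1.91 and 1.35 in seam cells at L2 and 2.06 and 1.92 at L4, against -0.63, 0.09, 0.14 and 0.06 in the hypodermis. The *elt-6* members had 1.70 and 1.06 at L2 and 2.35 and 2.33 at L4, against -0.02, 0.04, 0.19 and -0.44. They are small parts of larger seam signals: 16 of 97 *egl-18* fragments had at least 1 in seam cells at both stages, and 14 of them exceeded the hypodermis limit. The nuclear hormone receptor gene *nhr-73* had 2 members at its 5′ end with 0.43 and 2.68 at L2 and 3.19 and 1.66 at L4, so L2 replicate 1 was close to the hypodermis, where the 4 means lay between -0.15 and 0.04.

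Of the 13 seam cell markers 7 were hit (53.8%), namely *egl-18*, *elt-1*, *elt-6*, *grd-10*, *grd-13*, *grd-3* and *nhr-73*, whereas 0.791% of the 19983 protein-coding genes were hit. The marker list was drawn up with results of these data known, so the count describes the members and adds no independent evidence. The gene *srf-3*, whose intron drives the seam fusions, had no member, with an occupancy of 0.80 and 0.86 in seam cells and -0.25 and -0.66 in the hypodermis. Nor did *wrt-2* have one in its body, where the occupancy was 0.75 and 1.07 in seam cells and 1.26 and 0.87 in the hypodermis. Its upstream member had 1.58 and 2.03 in the L2 seam replicates, 2.43 and 4.42 at L4, and 0.59, -0.74, 0.23 and -0.18 in the hypodermis. None of the 9 hypodermis markers was hit, and neither were the 7 of intestine, 10 of neurons, 5 of pharynx, 6 of germline and 4 of glia. The limit on the hypodermis scores fixed the first of these results in large part. With 0.791% of all genes hit, lists this short would mostly hold no hit, so nothing is read from the others. For *dpy-7* the seam occupancy was 1.80 and 4.003 and the hypodermis occupancy 2.85 and 2.19.

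The glycosyltransferase gene *bus-8B*, needed for the epidermal surface to which bacteria adhere, had 5 members among 13 fragments, with a mean of 2.02 and 3.16 in the L2 seam replicates and 3.63 and 3.39 at L4. In the hypodermis the means were 0.04 and -0.04 at L2 and -0.49 and -0.70 at L4, with no overlap. The 2 leftmost of these members also overlap *bus-8A*, and their reads cannot be assigned to one of the genes. The galactosyltransferase gene *bus-4* had 4 members among 11 fragments, with 2.26 and 1.29 at L2 and 1.73 and 2.43 at L4, against -1.31, -0.78, -0.20 and -0.88. They formed 2 runs that differed at L2, with 2.05 and 2.58 in one and 2.47 and 0 in the other. A run of 2 intergenic members lay 824 bp upstream of *bus-4*, with 3.15 and 1.13 at L2 and 4.51 and -0.01 at L4, so L4 replicate 2 did not carry it.

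The gene *ham-1*, which encodes a winged-helix protein of asymmetric neuroblast divisions, had 4 members among 12 fragments. Its means were 1.98 and 2.53 in the L2 seam replicates and 3.55 and 2.28 at L4, and between -0.16 and 0.04 in the hypodermis. A run of 5 members in the nuclear hormone receptor gene *nhr-265* (chromosome I 12252666-12253388) had 1.07 and 2.52 at L2 and 2.06 and 3.60 at L4, with -0.03, -0.70, -0.55 and -0.84 in the hypodermis. In both genes every seam replicate mean lay above every hypodermis mean, which the selection fixed in large part. Without replicate 2, *nhr-265* held 0 members and *ham-1* held 2, and without replicate 1 each held 5.

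Ranked by the lower of their seam scores, the top 2 members were not in an exon. They belonged to a run of 4 over 426 bp in an intron of *hmr-1* (chromosome I 11109980-11110405), which encodes the classical cadherin of *C. elegans*, and the run made up 0.723% of the bases of this gene of 129 fragments. The means of the run were 4.89 and 3.83 in the L2 seam replicates and 4.44 and 4.07 at L4. In the hypodermis they were 0.07, -0.11, 0.24 and -0.41. The occupancy of the whole gene was 0.09 and 0.47 in seam cells and 0.10 and 0.11 in the hypodermis, so the run stood as an island within the gene. Its fragments were short and adjacent, and with fragments of at least 200 bases alone *hmr-1* held 0 members.

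Genes of body wall muscle were also hit. Of 7 muscle markers 3 held members (42.9%, against 0.791% of all protein-coding genes). These were the myosin heavy chain genes *unc-54* (4 members) and *myo-3* (1) and the tropomyosin gene *lev-11* (1). The markers had a median of 38 fragments, against 7 over all genes. The markers *unc-15*, *unc-22*, *hlh-1* and *unc-27* held none, with a seam occupancy between -0.22 and 0.72 at L2 and between -0.68 and -0.43 at L4. The vinculin gene *deb-1* had 7 members in 1 run of exons (chromosome IV 7090380-7091448), with 3.96 and 1.58 in the L2 seam replicates, 0.85 and 2.87 at L4, and -1.97, -0.93, -0.22 and -1.06 in the hypodermis. The *unc-54* members had 1.74 and 2.22 at L2 and 1.45 and 1.66 at L4, and all hypodermis means were below 0, from -1.38 to -0.04. One of them, at chromosome I 14857847-14858011, had -0.10 in L2 replicate 1. The seam occupancy of the whole gene was 1.59 at L2 and 0.14 at L4. The members in *myo-3* and *lev-11* had a lowest seam value of -0.28 (*myo-3*, L2 replicate 1) and 0.45 (*lev-11*, L4 replicate 2). Over the whole marker list the median occupancy was 0.72 at L2 and -0.43 at L4 for seam cells, and -0.83 in the hypodermis at both stages. Adding, after the values had been seen, the muscle genes *deb-1*, *mup-2*, *unc-87*, *unc-89*, *unc-105* and *emb-9* to the 3 markers accounted for 22 of the 341 members. Their part in the other results was not tested, and 319 members, 71 runs and 148 genes were left without them.

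The run of 8 members over *F14E5.8* and the end of *fdgt-2* (chromosome II 8419795-8421925) had hypodermis replicates of opposite sign. Its means were 1.41 and 2.52 in the L2 seam replicates and 1.84 and 1.08 at L4. In the hypodermis they were 0.89 and -2.55 at L2 and -1.96 and 1.24 at L4, so the groups overlapped and the low group scores were averages of opposite replicates. The transgenes were inserted at *ttTi5605* on chromosome II, a site known to lie beside *F14E5.8*, and the homology arms of such insertions match the sequence around it. The part of the insertion in these scores was not tested, and without this run 333 members, 74 runs and 156 genes remained.

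Other long runs rested on some of the replicates. The 4 members in *K08C9.1* had 0.00 and 3.87 in the L2 seam replicates and 2.81 and 0.16 at L4, so 1 replicate of each stage was near 0. The 4 members in the cap methyltransferase gene *cmtr-1* had 4.03 and -0.01 at L2 and 0.53 and 2.70 at L4. The 4 members in the topoisomerase II gene *top-2*, of which 3 were adjacent, had 3.04 and 0.31 at L2 and 2.07 and 0.60 at L4. The 4 members in *K02D3.2* formed 2 runs that were uneven in opposite ways, with 3.25 and -0.08 at L2 in one and 0.69 and 2.10 at L2 and 2.37 and 0.54 at L4 in the other.

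**Figure D5:**
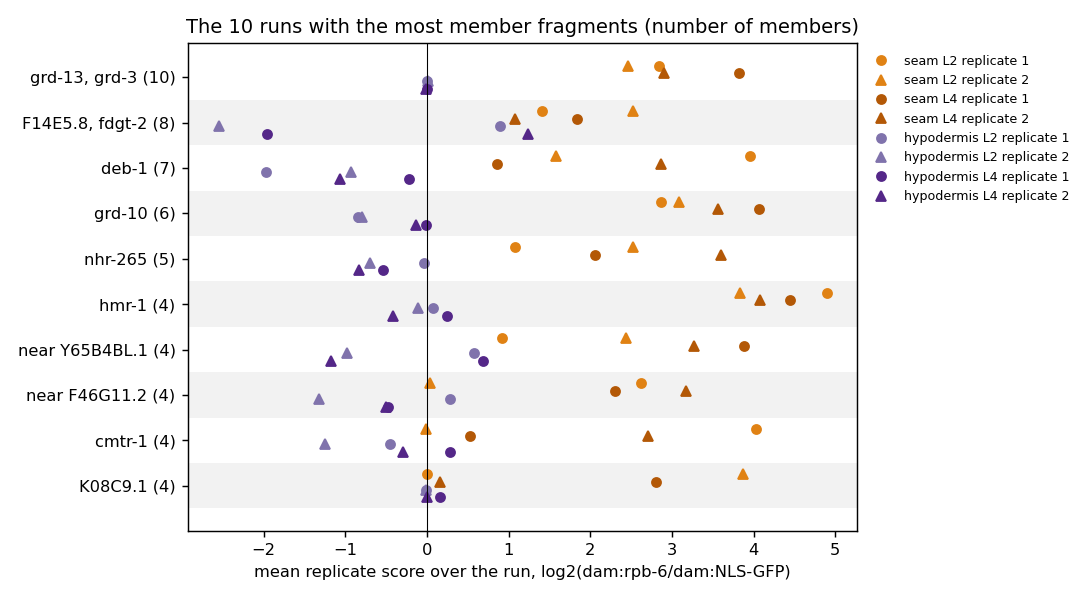
Mean replicate score (horizontal axis, log2) of the 10 runs with the most members (vertical axis, number of members in brackets), with circles for replicate 1 and triangles for replicate 2. In the *grd* and *hmr-1* runs the seam values lie between 2.46 and 4.89 and apart from the hypodermis values, whereas in *F14E5.8*, *cmtr-1*, *K08C9.1* and the run near *F46G11.2* the cell types overlap.

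Among 36 regulators of seam cell division, fate and timing, 3 were hit (8.33%, against 0.791% of all protein-coding genes), each by 1 member. The regulators had a median of 14.5 fragments, against 7 over all genes, and nothing is read from so low a count. The fragment in *cdk-4*, the G1 cyclin-dependent kinase gene, had even values, 1.42 and 1.58 in seam cells at L2 and 1.32 and 1.501 at L4, against 0.09, -0.02, -0.24 and -0.36 in the hypodermis. The fragment at the start of the heterochronic gene *lin-46* had 0.45 and 2.43 at L2 and 2.54 and 0.46 at L4, and ended a run of 3 whose other members lay upstream. Over this run the means were 1.01 and 1.71 at L2 and 2.41 and 1.47 at L4, and -0.35, -0.16, -0.14 and -1.17 in the hypodermis. The fragment in the histone deacetylase gene *hda-1* had 0.44 and 2.36 at L2 and 2.04 and 0.08 at L4, so a replicate of each stage was under 0.5.

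By family, 3 of 85 hedgehog-related genes were hit (3.53%), all in the *grd* cluster, 4 of 269 nuclear hormone receptor genes (1.49%; *nhr-73*, *nhr-127*, *nhr-265*, *nhr-270*), 2 of 194 collagen and body shape genes (1.03%; *col-172*, *dpy-22*), 1 of 63 *ceh* homeobox genes (1.59%; *ceh-43*) and none of 36 astacin genes. *dpy-22* belongs to this list by name and encodes a Mediator subunit. Genes hit were divided by more GATC sites than most, with a median of 13 fragments against 7 over all genes, and among the 14528 genes with at least 5 fragments 1.00% were hit.

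In all, 256 members lay in 158 protein-coding genes, 100 of which had 1 member, 33 had 2, 10 had 3 and 15 had 4 or more. In 12 genes at least as many fragments were members as were not. The median occupancy of the genes hit was 0.37 and 0.51 in seam cells and -0.02 and -0.01 in the hypodermis, so most were occupied over a small part of their length. By occupancy of the whole gene 10 of the 19983 genes met the same limits, and all 10 were among the genes hit. Several histone genes, *his-3*, *his-6*, *his-45*, *his-59* and *his-60*, also held members and have near-identical copies elsewhere, so their reads cannot be placed with certainty.

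Intergenic members, which overlap no annotated gene of any class, numbered 63 (18.5% of members, against 19.5% of all fragments), and a further 22 members overlapped only non-coding genes or pseudogenes. Of the 63, 42 lay upstream of the nearest protein-coding gene (66.7%, against 62.7% of all intergenic fragments) and 21 downstream. Their median distance was 753 bp, against 1067 bp for all intergenic fragments, and the farthest was 8263 bp away. Only 13 of them lay nearest to a gene that held a member.

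There were 13 wholly intergenic runs with 32 members. The run of 4 that lies 2347 bp from *Y65B4BL.1* (chromosome I 527548-528622) had 0.92 and 2.44 in the L2 seam replicates and 3.88 and 3.27 at L4, and 0.58, -0.98, 0.69 and -1.17 in the hypodermis. The run of 4 that lies 180 bp from *F46G11.2* (chromosome X 5787712-5787981) had 2.62 and 0.04 at L2 and 2.304 and 3.17 at L4, and its hypodermis replicates reached 0.28, so the groups overlapped. A run of 2 upstream of *cdh-3*, a gene for a Fat-like cadherin, had 1.41 and 2.40 at L2 and 2.26 and 1.95 at L4, and all 4 hypodermis means were between -1.97 and -0.81. A run of 3 whose nearest gene was the glutamate receptor gene *glr-4*, 8037 bp away, had 1.896 and 1.29 at L2 and 2.19 and 1.15 at L4, with the hypodermis between -0.03 and 0.03. The other intergenic runs lay nearest to *ZK930.6*, *bus-4*, *nhr-270*, *F35G2.1*, *skpo-2*, *F52E1.2*, *Y38E10A.17*, *nhr-234* and *ctg-1*. Of these 9 runs, those near *F35G2.1*, *skpo-2* and *ZK930.6* had all 4 seam means at or above 0.70, and the others had a replicate at 0.21 or lower.

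Single intergenic fragments with high seam scores included that downstream of *algn-12*, printed above, with 2.93 and 1.48 at L2 and 3.71 and 4.69 at L4, and 0.55, -1.49, -0.57 and -0.41 in the hypodermis. The fragment 546 bp upstream of *F55D1.1* had 3.23 and 0.76 at L2 and 2.51 and 1.17 at L4, and overlapped the hypodermis, where L2 replicate 1 had 1.10. A fragment 2656 bp upstream of the forkhead gene *unc-130*, which was chosen after its values had been seen, had 1.05 and 1.84 at L2 and 4.12 and 3.05 at L4.

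Of 261 miRNA genes 5 lay within 500 bp of a member. The genes *mir-42*, *mir-43* and *mir-44* lay together inside 1 member (chromosome II 11889401-11890228), which had 1.27 and 1.99 in the L2 seam replicates and 2.76 and 2.38 at L4. In the hypodermis it had -0.45 and 0.24 at L2 and 0.77 and -0.83 at L4, below every seam value. The genes *mir-86* and *mir-8211* lay 34 bp and 313 bp from another member (chromosome III 11936512-11936603), whose seam replicates were less even, at 0.29 and 2.73 at L2 and 0.66 and 1.61 at L4.

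Members had a median length of 237 bases and a 75th percentile of 331, against 209 and 489 over all fragments, and none was longer than 954. There were 50 members under 50 bases (14.7%, against 17.6% of all). Their median GC content was 40%, against 37.1% for all fragments. By annotation 60.1% overlapped a coding exon, 11.1% lay in introns only and 3.81% in other exon sequence only, close to 59.1%, 11.6% and 3.31% of all fragments. Chromosome IV held 80 members (23.5%, against 16.9% of fragments) and chromosome V 56 (16.4%, against 21.3%). With genes of at least 1000 bp divided into 3 equal parts, the first held 92 of 249 pairs of gene and member (36.9%), the middle 66 (26.5%) and the last 91 (36.5%), where the other fragments of the same genes had 30.7%, 32.6% and 36.7%. These are shares beside a background and were not tested.

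The GATA words were searched on both strands, as AGATAG and as TGATAA with their reverse complements. Both words contain GATA, and a base can belong to matches of both. In the central 300 bases of members of at least 300 bases AGATAG was found in 11 of 110 (10.0%), against 7.85% of all such fragments, and TGATAA in 28 (25.5%), against 26.4%. Among intergenic members of that length 5 of 16 held AGATAG (31.3%), against 8.82% of 19288 intergenic fragments, and 4 held TGATAA (25%, against 25.7%). From 250 bases before to 50 after the start of the 158 genes hit, AGATAG was found in 19 of 158, against 9.21% of all protein-coding genes, and TGATAA in 22.8%, against 30.2%. Over the 2000 bases before the start, the shares were 41.8% against 42.0% for AGATAG and 85.4% against 86.5% for TGATAA. A match is a description of the letters in a window, and counts as low as 5 of 16 carry a wide error.

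The difference between L4 and L2 was fitted with limma over all 269057 fragments. The members had been chosen by their scores at both stages, from the same replicate profiles, which limits the differences they can have, so their values are given as a description and nothing is read from their counts. In seam cells 0.00409% of all fragments (11) passed a Benjamini-Hochberg adjusted p of 0.05, and 0 members did. At an unadjusted p of 0.05, 15 members (4.40%) and 6.11% of all fragments passed. The median difference over the members was -0.05, and 160 of 341 (46.9%) were higher at L4, against 36.9% of all fragments. The seam L4 replicates were also set against the control of the same number, which brings in the profiles left out of the group score. The member median was then -0.88, and 39 of 341 (11.4%) were higher at L4, against 40.2% of all fragments. At an unadjusted p of 0.05, 35 members (10.3%) passed, all of them lower at L4, against 2.99% of all fragments. The size of the members' difference in seam cells thus depended on which profiles were used. In the *elt-6* member at chromosome IV 1919745-1920419 both L4 replicates, 3.25 and 2.27, were above both L2 replicates, 1.42 and 0.80. This is a single example among 341 members, and its L2 group score, 1.0027, lay close to the seam limit.

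In the hypodermis 0.000743% of all fragments (2) and 0 members passed, and at an unadjusted p of 0.05 6 members and 4.28% of all fragments did. With 2 replicates a group, the difference depended on single libraries. The median seam difference over the members was -0.14 without L2 replicate 1 and 0.29 without L2 replicate 2. It was 0.08 without L4 replicate 1 and 0.14 without L4 replicate 2. Over all fragments the medians of these fits lay between -0.01 and 0.00. With replicate number as a block, which follows from the split of each population between the stages, no fragment passed in either cell type.

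The same rule with the cell types exchanged selected 1079 fragments, 7.07% of the 15265 with a score of at least 1 in the hypodermis at both stages. Of these 91.4% lay in protein-coding genes and 6.95% were intergenic, against 75.1% and 18.5% of the seam cell fragments. They formed 240 runs holding 55.5% of them, the longest of 6. The 2 sets come from the same 4 group scores, and the seam profiles had a lower agreement of replicates across all fragments (Pearson's r = 0.24 at L2 and 0.53 at L4) than the hypodermis profiles (0.66 at both stages), so the difference in annotation was not tested and the part of replicate error in it cannot be told apart.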

How the data were processed

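DNA of whole animals was read by TaDa in 16 samples. Single-end reads had been aligned by the authors to WBcel235 (Bowtie 2 v2.3.4, Samtools v1.9), and damidseq_pipeline had turned each pair of a *dam:rpb-6* and a *dam:NLS-GFP* library into a log2 ratio for every GATC fragment. The deposited files used here hold these log2 ratios, as 16 profiles of single pairs and 4 group averages. The pipeline normalises the 2 libraries of a pair to each other, so a score is relative to the genome as a whole. They also deposited 4 gene lists with mean scores and FDR, which were not used.

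All fragments ended at GATC sites, and 1 profile with starts counted from 1 was shifted to match the others. The averaged profile was the group score, except in seam cells at L4, where the profiles of replicate 1 against control 2 and replicate 2 against control 1 were averaged. The members and lists were chosen with earlier results of these data known. Genes came from Ensembl release 115, and a gene was hit when it overlapped a member by at least 1 base. Coordinates are counted from 1. Named genes were those of the 10 runs with most members, the 10 genes with most members, those at the 10 highest members and intergenic members, those nearest intergenic runs, and hit members of the marker, seam regulator and hedgehog-related lists.

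Stage differences were fitted in limma 3.58.1 (R 4.3.3) on 8 replicate scores with 4 group means and Benjamini-Hochberg adjustment over all fragments, after the script was tested on simulated data. Replicate numbers pair the stages because each population was split. Across fragments, the deviations of replicate 1 from 2 at L2 and L4 correlated at -0.04 in seam cells and 0.09 in the hypodermis. Python 3.11.15, numpy 2.4.6 and pandas 2.3.3 were used. Alternatives covered the thresholds, the averaged profile as deposited, quantile normalisation, single replicates and controls, fragment length, gene borders and the words' window.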

Additional observations from a re-analysis of the deposited data

Results flagged for a closer look

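In the run over *nhr-265* the scores of both seam cell replicates were higher at L4 than at L2, by 0.99 and 1.07, and those of both hypodermis replicates were lower, by -0.51 and -0.13. The difference between the 2 mean changes was 1.35, and it was not tested. The scores at both stages had chosen these fragments.

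The seam cell L4 profile of replicate 2 against control 2 entered neither the group score nor the main stage fit. It did enter alternative fits of the stage difference. Its median over the members was 1.47, against 0.00 over all fragments. In it 222 of 341 members had at least 1, against 6.83% of all fragments. The other profile left out, replicate 1 against control 1, went the other way, with a member median of 0.05 and 59 of 341 members at 1 or more, against 10.0% of all fragments. The first of these shares replicate 2 with 1 seam L4 profile that chose the members and control 2 with the other. It is thus no independent support.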

How the results depend on the processing

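The counts of members, runs, genes hit and intergenic members moved with the limits. A seam minimum of 0.75 gave 676 members, 146 runs, 348 genes and 110 intergenic members, and one of 1.5 gave 113, 23, 48 and 19, with a median length of 204. A hypodermis maximum of 0 gave 189, 42, 87 and 39, and one of 0.5 gave 520 members, 115 runs and 253 genes. Control 2 alone gave 537 members, 116 runs and 276 genes, and control 1 alone gave a median length of 210.5 and GC content of 41.2%. Fragments of at least 200 bases left 206 members, 19 runs and 36 intergenic members, with medians of 307.5 bases and 38.5% GC, and no member in *hmr-1* or *hda-1*. Genes extended by 500 bp left 36 intergenic members. Leaving out fragments with a pairwise score of exactly 0, chosen after seeing the data, left 223 members and 42 runs, and none in *grd-13*, *grd-3*, *grd-10*, *nhr-73*, *K02D3.2*, *cmtr-1*, *K08C9.1* or *myo-3*. Leaving out a replicate gave 386 to 997 members, 84 to 221 runs, 194 to 569 genes, 69 to 109 intergenic members, and medians of 204 to 240 bases and 38.9% to 40.1% GC. The seam L4 average as deposited left 243 members, of which 237 were shared, and quantile normalisation gave 459, of which 319 were. Of 24 named genes with members, 6 (*bus-4*, *bus-8B*, *deb-1*, *elt-1*, *ham-1* and *unc-54*) held a member under each of 12 settings. For single named genes 221 of 336 recomputed counts stayed within 1.5 times, 96 fell and 19 rose.

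For the stage difference, averaging each replicate over both controls called 4 members and 9387 fragments in seam cells and 3 members and 13447 fragments in the hypodermis (the scores of a group then share control libraries). With the replicate block, 0 fragments passed in either cell type. Same-numbered controls at L4 in seam cells gave 0 fragments and moved the member median from -0.05 to -0.88, and fragments of at least 200 bases gave 0 in both cell types. Quantile normalisation gave 5 in seam cells and 0 in the hypodermis. Leaving out a replicate gave 0 to 10 members and 853 to 9454 fragments in seam cells, and 0 members and 198 to 2634 fragments in the hypodermis, the lone replicate being assumed to vary like the other groups. The cause of these moves was not tested. Without read counts the depth limit is unknown.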
